A study of Mus musculus with 6 samples.

Results

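Amino acid transporter genes of the solute carrier (SLC) families were examined in N2A-A5 cells, a line of the mouse neuroblastoma Neuro-2a, before and after differentiation. The set held 58 of the 40413 genes in the count table. It was made up of the genes named Slc1a, Slc6a, Slc7a, Slc36a, Slc38a or Slc43a with a number, together with Slc3a1 and Slc16a10. Membership followed a rule on gene names that was chosen with earlier results of these data known. The rule left out 3 genes of these families, the cystine transporter subunit Slc7a11 among them.

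RNA was sequenced from 3 libraries of undifferentiated cells (0 h) and 3 libraries of cells after 96 h of differentiation. The design text calls the 3 of each time biological replicates. The 0 h cells, called acceptor cells, were untreated and grew in Dulbecco's Modified Eagle Medium with 10% fetal bovine serum (FBS), Pen/Strep, sodium pyruvate and 10 µg/mL blasticidin, an inhibitor of protein synthesis used for selection. The 96 h cells came from the same line and had been seeded without blasticidin, in a differentiation medium that held 10 µM retinoic acid and only 1% FBS. The effects of retinoic acid, serum, blasticidin and time in culture cannot be told apart, and each value is an average over all cells of a library, so that fewer expressing cells and less RNA per cell cannot be told apart either.

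Amino acids cross membranes through carriers that differ in substrate and in driving force. SLC1 and SLC38 proteins couple uptake to the sodium gradient, and SLC6 proteins move neurotransmitters, glycine, taurine and creatine with sodium and chloride. Some SLC36 proteins, Slc36a1 among them, use protons. Many SLC7 proteins are light chains that need a glycoprotein heavy chain, Slc3a2 or Slc3a1, to reach the plasma membrane. When amino acids are scarce, the kinase GCN2 raises translation of the transcription factor ATF4, which is known to act on several transporter genes, and leucine and arginine entering through these carriers are signals for the growth kinase complex mTORC1. In neurons, members of SLC1 and SLC6 also clear glutamate, GABA and glycine after release.

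Library totals ran from 16833672 to 20932343 estimated counts. The predicted gene Gm26917 took 18.7% to 22.7% of counts at 0 h and 28.7% to 31.7% at 96 h, which bears on scaling. Levels are given as CPM, counts scaled to a common library total with TMM factors, which set the typical gene equal between libraries. Sympathoadrenal markers were present, with Hand2 at 381 CPM at 0 h and 311 CPM at 96 h, whereas Th (0.775 and 0.699 CPM) was low. Of 13 such markers tested 9 were lower at 96 h (28.8% of all genes tested were) and 1 was higher (28.7% of all genes), and the 14 listed summed to 1851 to 1917 CPM at 0 h and to 1331 to 1393 CPM at 96 h. Of 7 fibroblast markers 3 were tested, of which Pdgfra and Dcn were higher at 96 h (28.7% of all genes were), and Col3a1 and Lum were at 0. The 7 together summed to 4.49 to 4.77 CPM at 0 h and 10.5 to 12.2 CPM at 96 h. The sums for 9 glial markers (8.99 to 10.7 and 6.35 to 9.82 CPM, Aqp4 at 0), 5 endothelial markers (1.91 to 3.11 and 1.86 to 4.09 CPM, Cldn5 at 0) and 8 blood markers (1.62 to 2.17 and 2.57 to 3.17 CPM, Aif1 and Hbb-bt among those at 0) were also low. The part of these markers in the results was not tested. Gm26917 was among 2070 structural and mitochondrial RNA genes removed together in an alternative fit. In that fit 12 transporter genes were higher and 3 lower, as many as with these genes kept. The part of Gm26917 alone was not tested.

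Between 0 h and 96 h the 2 neutral exchangers Slc1a4 and Slc1a5, the glycine transporter Slc6a9, the arginine and lysine transporters Slc7a1 and Slc7a3 and the large neutral amino acid transporter Slc7a5 were all higher, by 1.81-fold (Slc7a1) to 9.49-fold (Slc7a3). The lysosomal and plasma membrane proton-coupled transporter Slc36a1 fell 2.80-fold, and the taurine transporter Slc6a6 and the creatine transporter Slc6a8 fell by less. Of the 58 genes, 24 had enough counts to be tested, and 34 did not. Of the 24, 12 were higher (50.0%, against 28.7% of all 13705 genes tested), 3 were lower (12.5%, against 28.8%) and 9 did not pass at an adjusted p of 0.05 (edgeR quasi-likelihood test, Benjamini-Hochberg). In either direction 57.4% of all genes passed. By at least 2-fold, 6 were higher (11.7% of all genes were) and 1 was lower (3.77% of all genes). For 19 of the 24 (79.2%, against 64.1% of all genes), each library of one group lay above each of the other. The median log2 fold change was 0.45 over the 24 and 0.03 over all genes tested. These shares leave out the genes removed for low counts, and 2 of the 24 had a mean under 10 counts in a group.

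**Figure D1:**
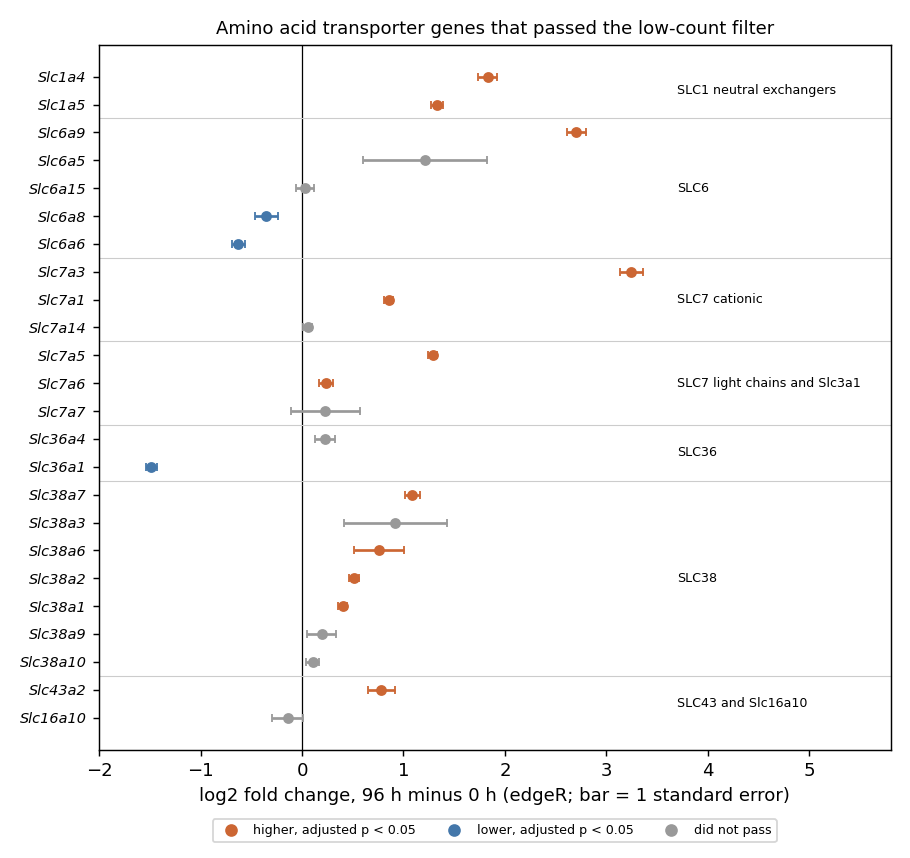
Log2 fold change (96 h minus 0 h, horizontal axis, with 1 standard error) of the 24 transporter genes that passed the low-count filter, grouped by family role, with colour for the call. The changes run from -1.49 for Slc36a1 to 3.25 for Slc7a3.

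The scale matters for small changes. With scaling by library size alone, the median of log2 fold changes over all genes shifted by -0.25, and 10 transporter genes were higher and 5 lower. Over all 13705 genes tested, 2409 were then higher and 5849 lower. Of the 12 higher genes, Slc7a6 (-0.02, adjusted p = 0.881) and Slc38a6 (0.51, adjusted p = 0.0909) then no longer passed. Slc7a14 (-0.20, adjusted p = 0.0114) and Slc16a10 (-0.39, adjusted p = 0.0371) were then lower. Directions below are on the TMM scale.

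The promoter sequences of 2 genes are shown first, because ATF4 is known to bind composite elements near several transporter genes and because E-boxes are common in promoters of lysosomal genes. The letters TGATGNAA (the core of the C/EBP-ATF composite element) and CACGTG (an E-box) were searched on both strands of RefSeq promoter windows on GRCm38.p6, 250 bases before to 50 bases after each listed start. No match of one overlapped a match of the other. Of the 58 genes, 41 had a window, as had 8 of the 12 higher and 1 of the 3 lower genes. In the stretches below, from 100 bases before to 10 bases after the start, capitals mark the matches.
Slc1a4, higher at 96 h, chr11:20332704-20332813, minus strand: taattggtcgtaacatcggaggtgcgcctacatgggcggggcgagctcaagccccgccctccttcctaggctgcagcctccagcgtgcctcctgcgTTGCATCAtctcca
Slc36a1, lower at 96 h, chr11:55204240-55204349, plus strand: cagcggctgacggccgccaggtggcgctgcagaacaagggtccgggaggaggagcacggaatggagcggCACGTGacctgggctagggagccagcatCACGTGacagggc
The Slc1a4 match reads TGATGCAA on the opposite strand and lies across the listed start. Slc36a1 held 2 E-boxes, one of them across the start. TGATGNAA was present for 1 of the 8 higher genes with a window, and among the 7 genes with a window that were tested and did not pass it was present for 1, Slc7a7. In Slc7a7 the same letters TGATGCAA also lay across a listed start, with TGATGAAA further before that start. Of all 32851 windows, 3.97% held it. CACGTG was present for 1 of the 8 higher genes (Slc38a7), for Slc36a1, and for 1 of the 7 that did not pass (Slc7a14). Over all 41 genes with a window, 3 held TGATGNAA and 9 held CACGTG, 6 of the latter among genes below the count filter. Of all windows 7.15% held CACGTG, but some genes have several windows, so that shares of genes and of windows are not on the same footing. A match describes the letters in the window, and no binding was measured.

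The neutral exchangers of SLC1 rose together. Slc1a4 (ASCT1), which exchanges alanine, serine, cysteine and threonine, stood at 28.4, 26.1 and 20.5 CPM in the 0 h libraries and at 91.3, 86.4 and 89.4 CPM at 96 h. The lowest 96 h library was thus far above the highest 0 h library, and the 96 h libraries lay closer together than the 0 h libraries. The log2 fold change was 1.83 ± 0.09 (SE, 3.55-fold, edgeR adjusted p = 1.99e-09). Slc1a5 (ASCT2), a main route of glutamine exchange, stood at 44.6, 44.8 and 49.9 CPM at 0 h and at 118, 117 and 116 CPM at 96 h. Its groups did not overlap either, with a log2 fold change of 1.33 ± 0.06 (2.52-fold, adjusted p = 5.01e-10).

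The glutamate and aspartate transporters of SLC1, which clear glutamate in brain, were close to absent. Slc1a3 had 0 counts in all 6 libraries, Slc1a6 had 1 at 0 h and 2 at 96 h, and Slc1a2 had 2 and 5. Slc1a1, the neuronal form EAAC1, had 2, 0 and 0 counts at 0 h and 23, 16 and 7 at 96 h. The ratio of its depth-scaled counts was 28.5 (exact 95% interval 7.45 to 242, counting error only). It was below the count filter and passed without it (edgeR adjusted p = 8.63e-06). Slc1a7 had 0, 1 and 1 counts at 0 h and 5, 1 and 58 at 96 h, so that replicate 3 held most of its reads. Its adjusted p without the filter was 5.40e-08, but 0.410 when that library was left out, which left 6 counts at 96 h.

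Among the SLC6 carriers the gene for a glycine transporter rose, and those for the taurine and creatine transporters fell. Slc6a9 (GLYT1), the glycine transporter, stood at 5.58, 6.004 and 6.53 CPM at 0 h and at 37.1, 42.5 and 38.5 CPM at 96 h. Every 96 h library was above every 0 h library, and the log2 fold change was 2.70 ± 0.10 (6.52-fold, edgeR adjusted p = 7.44e-11). In GENCODE M21, B4galt2 and Ccdc24 overlap Slc6a9 on the opposite strand, and the strand setting of the counting is not given, so that shared reads cannot be told apart. B4galt2 rose by less (5.68 ± 0.76 to 10.5 ± 1.0 CPM, mean ± SD, n = 3 as for all means here, log2 fold change 0.88 ± 0.16), and Ccdc24 did not pass (-0.55 ± 0.47).

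Slc6a6, which imports taurine, stood at 125, 134 and 138 CPM at 0 h and at 82.4, 92.7 and 81.6 CPM at 96 h. Its groups did not overlap (log2 fold change -0.63 ± 0.06, adjusted p = 1.06e-06). Slc6a8, which imports creatine, went from 13.6 ± 0.43 to 10.6 ± 0.78 CPM (-0.35 ± 0.11, adjusted p = 0.0157). That call was lost with upper-quartile scaling (adjusted p = 0.0541) and without 96 h replicate 3 (0.0584). The ratio of Slc6a6 to Slc6a9, each per kb of RNA, does not depend on how libraries are scaled, and ran from 11.9 to 12.6 at 0 h and from 1.19 to 1.25 at 96 h.

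Slc6a15, a neuronal transporter of branched-chain amino acids and proline, did not pass (22.9 ± 2.2 and 23.4 ± 0.75 CPM, log2 fold change 0.03 ± 0.09). Slc6a5 (GLYT2), the glycine transporter of glycinergic neurons, had 4 to 25 counts at 96 h and 5 to 12 at 0 h, and did not pass (1.21 ± 0.61, adjusted p = 0.107, or 0.0352 without 96 h replicate 1). The other 13 SLC6 genes were below the filter. They included the GABA transporters Slc6a11 (2 counts in all at 0 h and 0 at 96 h) and Slc6a13 (0 in all libraries), the dopamine transporter Slc6a3 (0 and 1) and the serotonin transporter Slc6a4 (1 and 0). The betaine and GABA transporter Slc6a12 had 0 counts at 0 h and 9 at 96 h. Its 96 h libraries held 4, 0 and 5 counts, so that the groups overlapped. Against a floor of 3 counts for the whole 0 h group the ratio was 3.71. The exact 95% interval of that ratio began at 2.44 (counting error only). Slc6a12 passed without the filter (edgeR adjusted p = 0.0419).

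The cationic transporters of SLC7, which carry arginine, lysine and ornithine, included the largest rise of the tested members. Slc7a3 (CAT-3) stood at 4.13, 4.56 and 5.28 CPM at 0 h and at 41.2, 42.2 and 49.1 CPM at 96 h. The groups were well apart, with a log2 fold change of 3.25 ± 0.11 (9.49-fold, edgeR adjusted p = 5.10e-11). Slc7a1 (CAT-1), the widely expressed form, stood at 185, 174 and 185 CPM at 0 h and at 333, 333 and 318 CPM at 96 h, again without overlap (0.86 ± 0.05, 1.81-fold, adjusted p = 2.93e-09). Per kb of RNA, Slc7a1 exceeded Slc7a3 by 13.4 to 17.2 times in the 0 h libraries and by 2.48 to 3.10 times in the 96 h libraries. Slc7a14, a relative of these carriers, was at 101.2 ± 1.9 and 105 ± 1.9 CPM and did not pass (0.05 ± 0.05), though it was higher with upper-quartile scaling (adjusted p = 0.0284) and a stricter filter (0.0413), while Slc7a2 (8 and 4 counts) and Slc7a4 (4 and 15) were below the filter.

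Among the light chains, Slc7a5 (LAT1) was the most abundant transporter RNA of the set per kb, and Slc7a5 rose further. In CPM, without regard to length, Slc38a1 was higher at 0 h. LAT1 exchanges leucine and other large neutral amino acids against glutamine. Slc7a5 stood at 255, 243 and 254 CPM at 0 h and at 627, 625 and 588 CPM at 96 h. No 96 h library came near the 0 h range, and the log2 fold change was 1.29 ± 0.04 (2.45-fold, edgeR adjusted p = 5.82e-11). Slc7a6 (y+LAT2), which exchanges cationic for neutral amino acids, rose by a small amount, from 48.0 ± 3.5 to 56.7 ± 1.5 CPM (0.24 ± 0.07, adjusted p = 0.00717). Slc7a7 (y+LAT1) did not pass (2.10 ± 0.78 and 2.48 ± 0.56 CPM), and it overlaps the more abundant Oxa1l on the opposite strand. Slc7a10, Slc7a12, Slc7a13 and Slc7a15 had 0 counts in all libraries, Slc7a8 (LAT2) had 0 and 3, and Slc7a9 had 0 and 1.

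The heavy chain Slc3a2 (4F2hc), which is outside the set, rose with its light chain. It stood at 125, 123 and 132 CPM at 0 h and at 366, 355 and 356 CPM at 96 h, a log2 fold change of 1.503 ± 0.046 (2.83-fold, adjusted p = 1.89e-11). Per kb of RNA, the ratio of Slc7a5 to Slc3a2 was 1.54 to 1.63 at 0 h and 1.32 to 1.409 at 96 h, and that of Slc7a5 to Slc7a6 was 5.21 to 6.17 and 11.4 to 11.7. Slc7a5 thus gained on Slc7a6, and its lead over Slc3a2, present in every library, was smaller at 96 h. Slc3a1, the heavy chain of the cystine transporter of kidney and gut, had 2 and 4 counts.

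**Figure D2:**
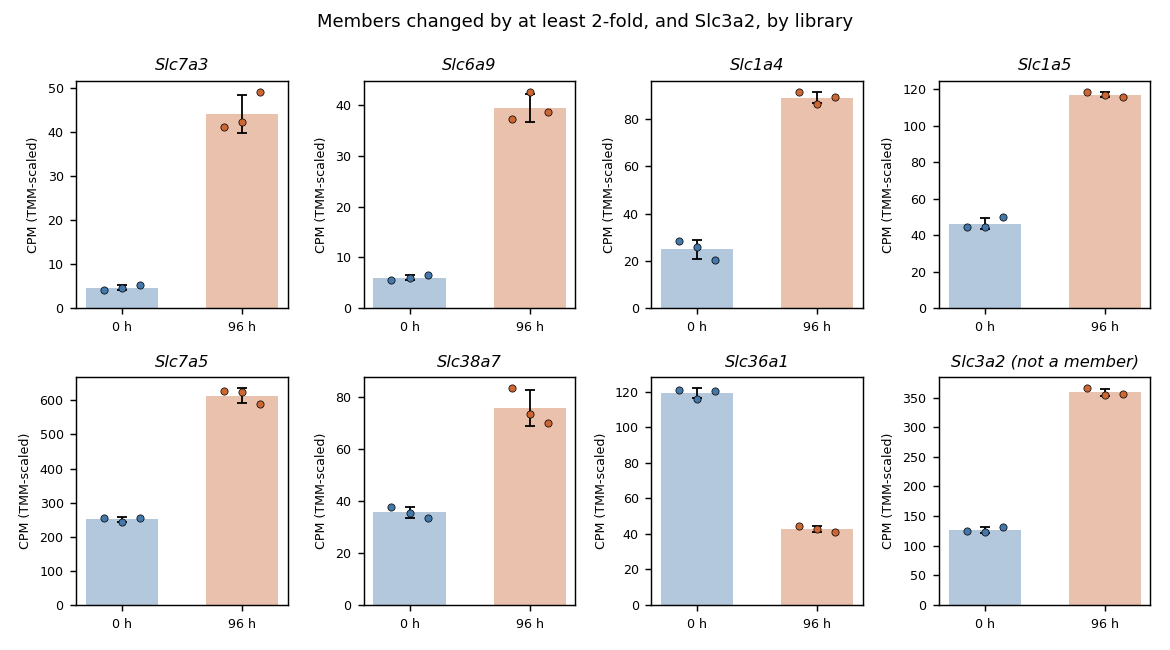
TMM-scaled CPM (vertical axes, from 0) of the 7 transporter genes that changed by at least 2-fold, and of the heavy chain Slc3a2, at 0 h and 96 h. Points are the 3 libraries, bars the mean and whiskers the SD, and in each panel the points of the 2 groups do not overlap.

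The SLC36 family held the largest fall among the 24 tested genes. Slc36a1 (PAT1), which exports small neutral amino acids from lysosomes and takes part in mTORC1 activation, stood at 121, 116 and 120 CPM at 0 h and at 44.1, 42.6 and 40.9 CPM at 96 h. Its groups were far apart, with a log2 fold change of -1.49 ± 0.05 (edgeR adjusted p = 1.16e-10). Slc36a4 (PAT4) did not pass (15.7 ± 1.8 and 18.4 ± 0.39 CPM, 0.23 ± 0.10, adjusted p = 0.0705), though it was higher with upper-quartile scaling (0.31, adjusted p = 0.0189) and with a stricter filter (0.0277). Per kb of RNA, Slc36a1 exceeded Slc36a4 by 8.44 to 11.02 times at 0 h and by 2.71 to 2.96 times at 96 h. Slc36a2 and Slc36a3 had 0 counts in all libraries.

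The sodium-coupled neutral transporters of SLC38 rose in 4 of 7 tested genes, against 28.7% of all genes. None of the 7 fell by edgeR, DESeq2 or limma-voom, whose estimates were all above 0, so that none was lower before adjustment either. The estimates of Slc38a9 and Slc38a10 were below 0 with library size alone. Slc38a7 (SNAT7), the lysosomal glutamine exporter, stood at 37.7, 35.3 and 33.5 CPM at 0 h and at 83.2, 73.3 and 70.0 CPM at 96 h. The groups did not overlap, and the log2 fold change was 1.09 ± 0.07 (2.13-fold, adjusted p = 3.30e-08). Slc38a2 (SNAT2), the system A carrier known to be induced by amino acid shortage, stood at 211, 204 and 213 CPM at 0 h and at 297, 314 and 284 CPM at 96 h (0.51 ± 0.05, 1.42-fold, adjusted p = 6.58e-07).

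Slc38a1 (SNAT1), the related carrier of neurons, stood at 343, 357 and 365 CPM at 0 h and at 476, 465 and 463 CPM at 96 h (0.40 ± 0.04, 1.32-fold, adjusted p = 1.93e-06). Both system A genes had groups without overlap, though their rises were smaller than those of Slc1a4, Slc1a5 and Slc7a5 in these estimates. Slc38a6 rose from 2.37 ± 0.44 to 4.01 ± 0.60 CPM (0.76 ± 0.25, adjusted p = 0.0180). Leaving out 0 h replicate 2 ended this call (adjusted p = 0.0733), as did leaving out replicate 1 (0.0814) or replicate 2 (0.0516) of the 96 h group. Slc38a9, the lysosomal arginine sensor of mTORC1 (7.92 ± 0.17 and 9.07 ± 0.82 CPM), Slc38a10 (99.9 ± 6.5 and 107 ± 6.7 CPM) and Slc38a3 (0.435 ± 0.21 and 0.811 ± 0.13 CPM) did not pass. Slc38a10 was higher with upper-quartile scaling (adjusted p = 0.0202) and with a stricter filter (0.0296).

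In the last families, Slc43a2 (LAT4), which lets large neutral amino acids down their gradient, rose from 7.47 ± 0.15 to 12.9 ± 1.6 CPM (0.78 ± 0.13, adjusted p = 0.000216). Its relative Slc43a1 (LAT3) had 3, 1 and 8 counts at 0 h and 0 at 96 h (edgeR adjusted p = 0.0347 without the filter). With the 96 h group set at the same floor, it was 3.23-fold lower. The exact 95% interval of its ratio of 96 h to 0 h ended at 0.445 (counting error only). Slc43a3, a nucleobase transporter by function, had 10 and 25 counts. Slc16a10 (TAT1), a carrier of aromatic amino acids, did not pass (8.40 ± 0.82 and 7.61 ± 0.73 CPM, -0.14 ± 0.15).

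Of the 34 genes below the count filter, 10 had 0 counts in all libraries, 13 had a total of 1 to 9, and 11 had more. The most were found for Slc1a7 (66.0 counts), Slc1a1 (48) and Slc43a3 (35). Without the filter, Slc1a1, Slc1a7, Slc6a12 and Slc38a5 (0 and 12 counts, edgeR adjusted p = 0.0178) were also higher and Slc43a1 was lower. This made 16 higher and 4 lower. Over all 26399 genes tested without the filter, 4070 were higher and 4180 lower, so the shares of the main fit do not apply. With the 0 h group set at the floor, the ratio for Slc38a5 was 4.95. Its exact 95% interval began at 3.44 (counting error only).

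Levels of different genes were compared per kb of the longest annotated transcript. At 0 h the order was Slc7a5 (71.3 ± 2.0 CPM per kb), Slc38a1 (48.8 ± 1.5), Slc38a2 (34.3 ± 0.75), Slc7a1 (25.2 ± 0.91) and Slc36a1 (22.6 ± 0.52). The next gene, Slc38a10 (21.8 ± 1.4), differed from Slc36a1 by less than its SD, and Slc6a6 followed (21.4 ± 1.05). At 96 h the first 4 were Slc7a5 (174 ± 6.3), Slc38a1 (64.5 ± 0.95), Slc38a2 (48.8 ± 2.4) and Slc7a1 (45.7 ± 1.2). Slc1a5 followed (41.7 ± 0.52, from 16.5 ± 1.1 at 0 h), and Slc36a1 was at 8.08 ± 0.30. Slc7a5 was first in both groups with either length, but with the union of exons as the length Slc38a1 stood at 20.6 CPM per kb at 0 h and 27.2 at 96 h, behind Slc38a2 (23.7 and 33.8). With that length Slc36a1 (21.2) also preceded Slc38a1 at 0 h, and Slc7a1 (28.4) and Slc1a5 (28.0) preceded it at 96 h.

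**Figure D3:**
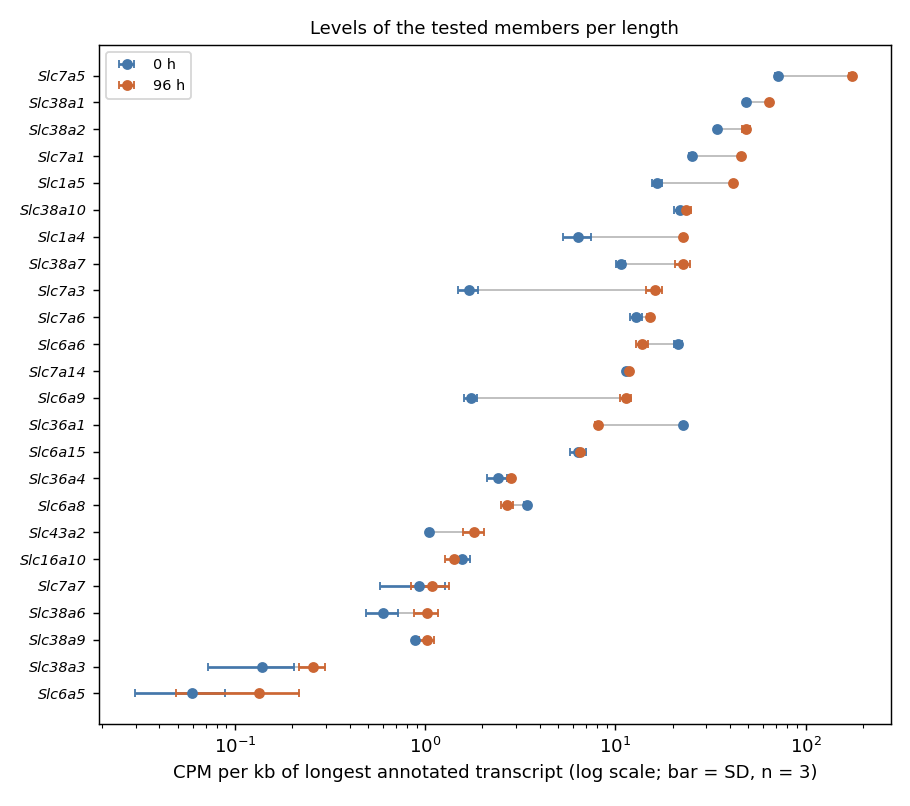
Mean CPM per kb of the longest annotated transcript (horizontal log axis, with SD over 3 libraries) for the 24 tested genes at 0 h and 96 h, ordered by the 96 h level. Slc7a5 leads at both times, and the longest connecting lines belong to Slc7a3 and Slc6a9.

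The 58 genes together held 0.182% to 0.188% of all counts in the 0 h libraries and 0.232% to 0.239% at 96 h. Their summed level was 324 ± 4.5 CPM per kb at 0 h and 540.3 ± 12.0 at 96 h. Slc7a5 supplied 21.5% to 22.5% of that sum at 0 h and 31.7% to 32.6% at 96 h. Slc38a1 and Slc38a2 together supplied 25.3% to 25.8% and then 20.8% to 21.2%. The 5 leading genes of each library supplied 61.7% to 62.8% at 0 h and 68.9% to 69.9% at 96 h, so that the sum rested on few genes in both states.

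**Figure D4:**
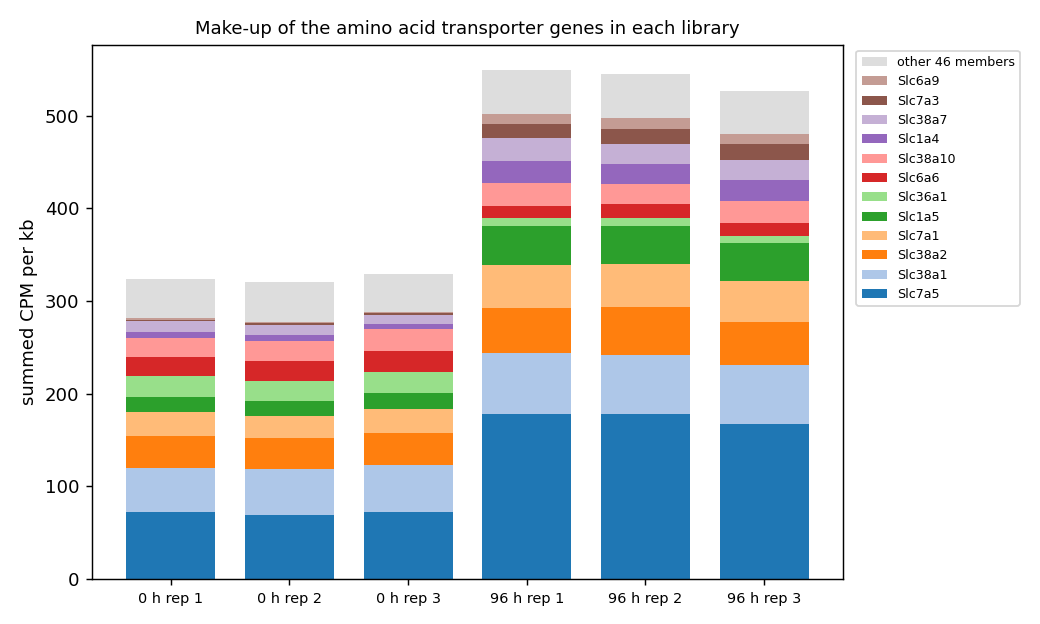
Summed CPM per kb (vertical axis, from 0) of the 58 transporter genes in each of the 6 libraries, stacked by gene for 12 named genes, with the other 46 pooled. The 0 h bars reach 321 to 329 and the 96 h bars 527 to 549, and the Slc7a5 segment is the largest in each.

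Other carriers and partner subunits outside the set were examined with a list of 19 genes. Of 12 tested, 4 were higher (against 28.7% of all genes) and 5 lower (28.8% of all genes). Besides Slc3a2, the lysosomal cystine exporter Ctns (0.73 ± 0.18), the lysosomal cationic amino acid exporter Slc66a1 (0.46 ± 0.16) and the melanosomal and lysosomal cysteine importer Mfsd12 (0.36 ± 0.11) rose. The calls of Slc66a1 and Mfsd12 were lost without 0 h replicate 1 (adjusted p = 0.0808 and 0.0598) or 96 h replicate 3 (0.0544 and 0.0620), and with library size alone (0.290 and 0.411). That of Slc66a1 was also lost without 96 h replicate 2 (0.0634) or without the filter (0.0694). The mitochondrial ornithine carrier Slc25a15 (-0.93 ± 0.11), the aspartate and glutamate carrier Slc25a12 (-0.34 ± 0.07), the glycine carrier Slc25a38 (-0.60 ± 0.17), the glutamate carrier Slc25a22 (-0.28 ± 0.09) and the lysosomal histidine and peptide transporter Slc15a4 (-0.33 ± 0.08) fell. The vesicular glutamate and GABA carriers Slc17a6 (0 and 1.99 counts), Slc17a7 (14 and 22.3), Slc17a8 (1 and 5) and Slc32a1 (13.0 and 5) were below the filter.

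Genes that sense amino acids through GCN2 and mTORC1 moved in both directions. Of 46 genes, all tested, 14 were higher (30.4%, against 28.7% of all genes), 12 lower (26.1%, against 28.8%) and 20 did not pass. Their median log2 fold change was 0.03, that of all genes. The 4 higher genes with the smallest adjusted p were Atf4 (1.64 ± 0.04), Eif4ebp1, a translation repressor controlled by mTORC1 (1.94 ± 0.06), Sesn2, a leucine sensor that restrains mTORC1 (1.84 ± 0.12), and Ddit4, an mTORC1 inhibitor (1.62 ± 0.14).

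Atf4 stood at 194, 201 and 209 CPM at 0 h and at 627, 609 and 642 CPM at 96 h, with no overlap. The 4 lower genes with the smallest adjusted p were Lamtor1, the membrane anchor of the Ragulator complex on lysosomes (-0.84 ± 0.09), Seh1l (-0.64 ± 0.07) and Itfg2 (-0.52 ± 0.10), subunits of the GATOR2 and KICSTOR complexes, and Gcn1, the GCN2 activator (-0.29 ± 0.06). With library size alone 7 of the 46 were higher and 20 lower, against 2409 and 5849 of all 13705 genes tested.

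**Figure D5:**
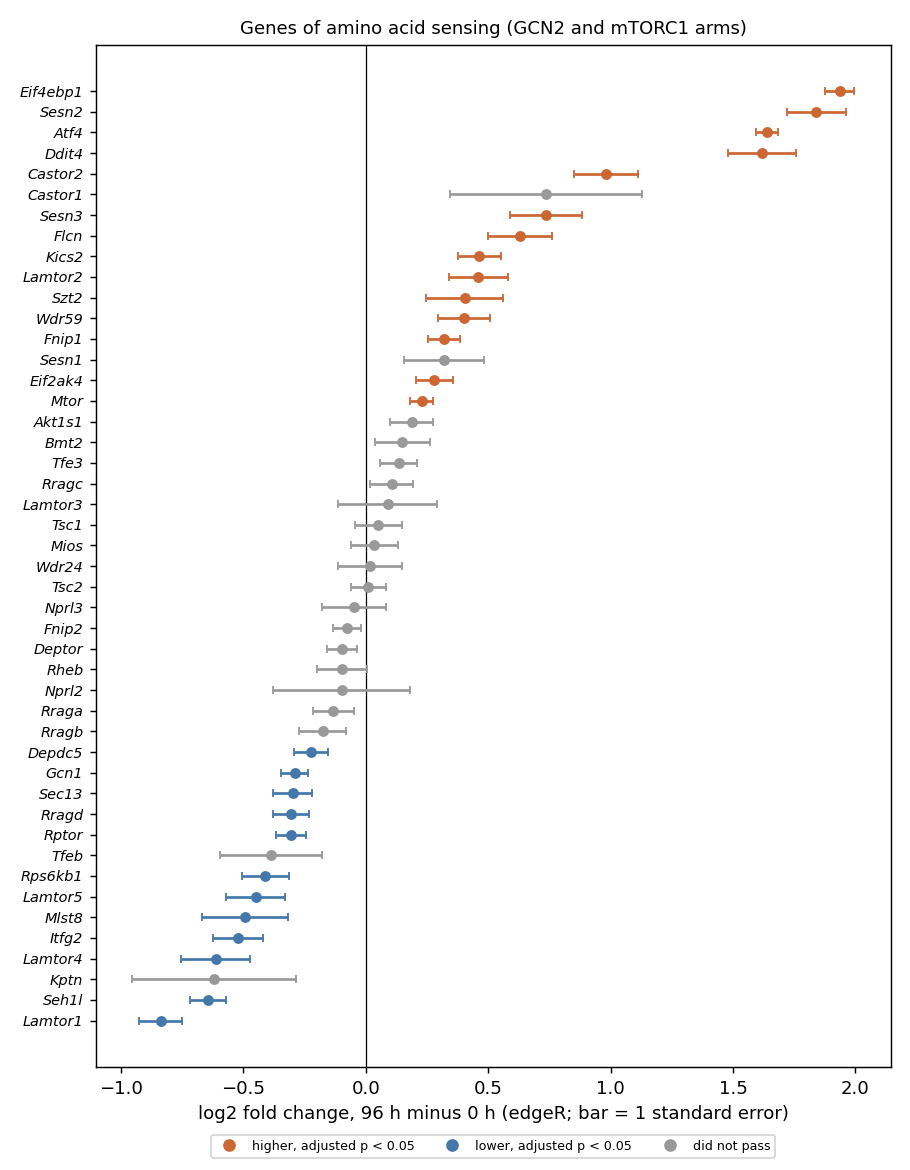
Log2 fold change (96 h minus 0 h, horizontal axis, with 1 standard error) of the 46 genes of amino acid sensing, ordered by value and coloured by call. Eif4ebp1, Sesn2, Atf4 and Ddit4 stand above 1.5, and Lamtor1 is lowest at -0.84.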

How the data were processed

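The deposited values are estimated counts per gene for 6 libraries, made by the authors before deposit and not normalised, in 40413 rows named by gene symbol. Per the labels' protocols, ribosomal RNA was depleted and a stranded total RNA kit was used. The submitters' processing notes name the build mm39 and the tools Salmon 1.10.1, FastQC 0.12.1 and DESeq2 1.52.0. Their roles, annotation and strand setting were not given in the sources available here.

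Counts were rounded and tested across all genes with edgeR 4.0.16 (R 4.3.3): filterByExpr (13705 genes left), TMM factors, quasi-likelihood F test, Benjamini-Hochberg adjusted p threshold 0.05. SEs were taken as the absolute log2 fold change over the root of F. The test was also run on simulated data in which far fewer genes changed than were called here, and no result rests on that run. CPM use TMM-scaled library sizes. Lengths (58 of 58 genes matched by symbol) came from GENCODE M21 (GRCm38) and promoters from RefSeq (GRCm38.p6), not the build of the counts. Entries for promoters of Slc7a5, Slc7a3, Slc1a5, Slc38a1, Slc6a6 and Slc6a8 were not in the table.

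Alternatives were other scalings, other filters, DESeq2 1.42.0, limma-voom (limma 3.58.1), a replicate block and leaving out each library. Others were removal of 2070 structural and mitochondrial RNA genes, Gm26917 among them, and an adjusted p of 0.01. Every tested transporter gene is named, with all 6 libraries given for those changed at least 2-fold or among the 5 most abundant per length. From the 2 other lists, up to 4 higher and 4 lower genes with the smallest adjusted p are named. Slc25a22 and the vesicular carriers were named after their values were seen. Some genes of the lists are not reported here. The members and lists were chosen with earlier results of these data known. Libraries of 1 group always differed by more than sampling noise (chi-square per degree of freedom 6.37 to 13.5).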

Additional observations from a re-analysis of the deposited data

How the results depend on the processing

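The counts of 12 higher and 3 lower transporter genes were 11 to 13 and 2 to 3 when 1 library was left out. They were 12 and 3 with DESeq2, limma-voom, DESeq2 size factors or structural RNA removed. With upper-quartile scaling they were 15 and 2 (4526 and 3342 over all genes). With a filter at a mean of 50 counts they were 15 and 3 (3487 and 3366 over all genes). At an adjusted p of 0.01 they were 11 and 2 (3004 and 3278 over all genes). Over all genes 7869 passed, and 7141 to 7603 with 1 library left out. With library size alone, 5 transporter genes, 20 sensing genes and 5849 genes in all were lower, and 10, 7 and 2409 were higher, as were 2 in the carrier list. That count of carriers, 4, was 2 to 5 with 1 library left out, with 2 without 0 h replicate 1 or 96 h replicate 3. Signs turned with library size alone for Slc36a4 (-0.0255), Slc38a10 (-0.14), Slc38a9 (-0.0593), Slc6a15 (-0.22), Slc7a14 (-0.20), Slc7a6 (-0.0159) and Slc7a7 (-0.0343). The sign of Slc6a15 also turned without the filter (-0.0076). Its log2 fold change was -0.0224 to 0.1069 with 1 library left out, below 0 without 0 h replicate 1 or 3. That of Slc7a7 was -0.0523 to 0.4085, below 0 without 0 h replicate 3. The cause was not tested. With a replicate block 12 transporter genes were higher and 3 lower, and 7712 passed over all genes. Same-numbered libraries did not deviate together (correlations -0.01, 0.01 and -0.005), so the numbers were not treated as pairs. Leaving out 96 h replicate 3 for Slc1a7 and Slc1a1 was chosen after seeing the data. Genes with fewer than about 10 counts per library are limited by depth.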
